A study of Mus musculus with 6 samples.

Results

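The messenger RNAs of 8 genes that break heme down or move it across membranes were followed through the induced differentiation of murine erythroleukemia (MEL) cells. The genes were chosen by function, with earlier results of these data known. They were the heme oxygenases Hmox1 and Hmox2, the biliverdin reductases Blvra and Blvrb, and the exporters Flvcr1 and Abcg2. The others were the FLVCR family member Flvcr2 and Slc48a1, which carries heme out of endosomes and lysosomes. Each gene was represented by its RefSeq transcript with the highest mean count over the 6 libraries, among 23948 genes with a symbol. Of the 8 genes, 7 held enough reads to be tested, as did 12414 genes in all, and Flvcr2 had no read in any library.

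Heme oxygenases open the heme ring, releasing iron and carbon monoxide and leaving biliverdin, which biliverdin reductases turn into bilirubin. A cell can also lower its free heme by exporting it through FLVCR1 or ABCG2 at the plasma membrane. A maturing erythroid cell makes large amounts of heme for hemoglobin, while HMOX1 is best known for heme recycling in macrophages and for its induction by free heme and oxidative stress.

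MEL is a single mouse cell line of virus-transformed erythroid precursors held at the proerythroblast stage, and no animal or primary cell was sampled. Dimethyl sulfoxide (DMSO, 2%) was added to start differentiation, and poly(A)-selected RNA was sequenced before induction (day 0) and after 2 and 4 days, from 2 biological replicates a day. No parallel culture without DMSO was analysed here at day 2 or day 4, so that time in culture and treatment cannot be told apart. The libraries held 35294930 to 53899476 counts on RefSeq transcripts, and replicate correlations of log2 CPM (counts scaled to a library of 1e6 reads) lay between 0.991 and 0.996. The erythroid label was checked with 9 marker genes, all of which were measured. Of these, 8 were higher and 1 (Klf1) was lower at day 4 than at day 0 at an edgeR adjusted p below 0.05. Of all tested genes, 35.5% were called higher and 36.4% lower in that comparison. Globin transcripts rose from at most 0.0426% of counts at day 0 to at least 3.84% at day 4. Of 10 macrophage and myeloid markers, 4 passed the filter on low counts, the summed level of all 10 was 6.89 to 6.99 CPM at day 0 and 2.61 to 3.28 CPM at days 2 and 4, Vcam1 was at 0 in every library, and Marco and Itgam never exceeded 3 counts. Of the 4 tested, 1 was higher at day 2 than at day 0 (Lyz2, log2 fold change 2.08, edgeR adjusted p = 0.000699) and 2 were lower (Cd68, -2.43, adjusted p = 5.65e-06, and Csf1r, -1.66, adjusted p = 0.0061). Of 3 megakaryocyte markers, Itga2b (1.38, edgeR adjusted p = 2.39e-06) and Gp1ba (2.51, adjusted p = 3.89e-06) were higher and Pf4 (-2.39, adjusted p = 3.18e-07) was lower at day 4 than at day 0. The megakaryocyte calls stand beside the same shares of all genes at day 4. The myeloid calls stand beside 31.0% of all tested genes called higher and 31.5% called lower at day 2. The part of these markers in the results below was not tested.

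The DNA in front of the genes that rose over the 4 days, Abcg2, Flvcr1 and Blvrb, and of the silent Flvcr2 is shown first, since messenger RNA levels of these genes are compared throughout. Each sequence is the 250 bases before a start site in RefSeq (GRCm38.p6), written 5′ to 3′ on the strand of the gene. It was searched on both strands for AGATAA (bound by GATA factors), CCACCC (bound by erythroid Krüppel-like factors), TGACNNNGC (the core of the antioxidant response element) and ACGTG (the core of the hypoxia response element), and capitals mark every match.
Abcg2, chr6:58596422-58596671, plus strand: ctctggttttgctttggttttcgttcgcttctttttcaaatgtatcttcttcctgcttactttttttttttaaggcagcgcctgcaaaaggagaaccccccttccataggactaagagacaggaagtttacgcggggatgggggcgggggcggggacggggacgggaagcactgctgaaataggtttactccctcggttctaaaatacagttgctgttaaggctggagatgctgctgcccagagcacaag
Flvcr1, chr1:191026191-191026440, minus strand: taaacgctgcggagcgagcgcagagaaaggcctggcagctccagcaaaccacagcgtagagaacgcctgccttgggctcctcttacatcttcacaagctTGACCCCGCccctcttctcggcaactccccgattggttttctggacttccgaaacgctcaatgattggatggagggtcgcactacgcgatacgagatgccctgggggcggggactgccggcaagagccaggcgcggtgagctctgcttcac
Blvrb, chr7:27447728-27447977, plus strand: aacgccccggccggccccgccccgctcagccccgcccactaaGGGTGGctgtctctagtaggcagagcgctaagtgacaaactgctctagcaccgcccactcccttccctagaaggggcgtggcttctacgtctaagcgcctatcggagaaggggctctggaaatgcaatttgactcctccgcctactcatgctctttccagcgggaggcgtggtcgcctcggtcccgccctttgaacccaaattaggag
Flvcr2, chr12:85746289-85746538, plus strand: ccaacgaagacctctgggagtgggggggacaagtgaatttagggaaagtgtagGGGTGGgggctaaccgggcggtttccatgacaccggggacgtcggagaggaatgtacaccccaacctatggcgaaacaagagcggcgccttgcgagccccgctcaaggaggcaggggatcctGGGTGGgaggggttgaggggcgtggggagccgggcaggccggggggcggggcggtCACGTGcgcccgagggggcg
The Abcg2 window held none of the 4 motifs. The Flvcr1 window held a TGACNNNGC match whose first base lay 151 bases before the start site. The Blvrb window held CCACCC on the opposite strand 208 bases before the start site. The Flvcr2 window held CCACCC on the opposite strand at 197 and 75 bases and the palindrome CACGTG, which holds ACGTG on both strands and is one site, at 20 bases. RefSeq lists other start sites for Abcg2 and Blvrb, farther from the start of the counted transcript. Of the other Abcg2 windows, that before chr6:58584533 held CCACCC at 152 bases. The other Blvrb window, before chr7:27452418, held CCACCC at 233 bases and ACGTG at 123 bases. The start sites used held none for Hmox1 or Slc48a1, so that their windows were not searched. Of the genes that did not rise, the Blvra window held TGACNNNGC on the opposite strand at 49 bases. The Hmox2 windows, which lay far from the start of the counted transcript, held none of the 4 motifs. Among 32851 windows of this length, AGATAA occurred in 9.99%, CCACCC in 28.1%, TGACNNNGC in 10.2% and ACGTG in 16.6%. A match describes letters in the window, and binding was not measured.

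By day 2 the set had moved in both directions. Abcg2, Blvrb and Flvcr1 were higher and Hmox1, Hmox2 and Slc48a1 were lower than at day 0 at an edgeR adjusted p below 0.05, the threshold used for every call. The call thus fell on 6 of 7 tested genes, while it fell on 62.6% of all tested genes. The 3 increases stand beside 31.0% of all genes called higher, and the 3 decreases beside 31.5% called lower. From day 2 to day 4 the call fell on 2 genes, Abcg2 and Slc48a1, against 30.3% of all genes. Both rose, and 14.1% of all genes were called higher in that step. None of the 7 was called lower by edgeR, against 16.2% of all genes, although 1 (Blvrb) was lower at an unadjusted p below 0.05. DESeq2 also called 0 lower in that step. Scaling by library totals alone moved the share of calls that were increases, over all genes, from 49.6% to 63.4% at day 2 against day 0 and from 46.5% to 32.7% at day 4 against day 2, and gave 3 increases and 2 decreases, and 2 increases and 1 decrease, among the 7 genes in these comparisons. Over the whole course, day 4 against day 0, 5 of 7 genes were called, against 71.8% of all genes. Blvrb, Flvcr1 and Abcg2 were higher (35.5% of all genes were), and Hmox1 and Hmox2 were lower (36.4% of all genes were). Over the 7 genes, the log2 fold changes had a median of 0.05, -0.05 and -0.02 in the 3 comparisons, and over all tested genes of 0.01, -0.00 and -0.02. The comparisons share libraries, day 0 or day 2 entering more than one of them, and are therefore not independent.

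**Figure D1:**
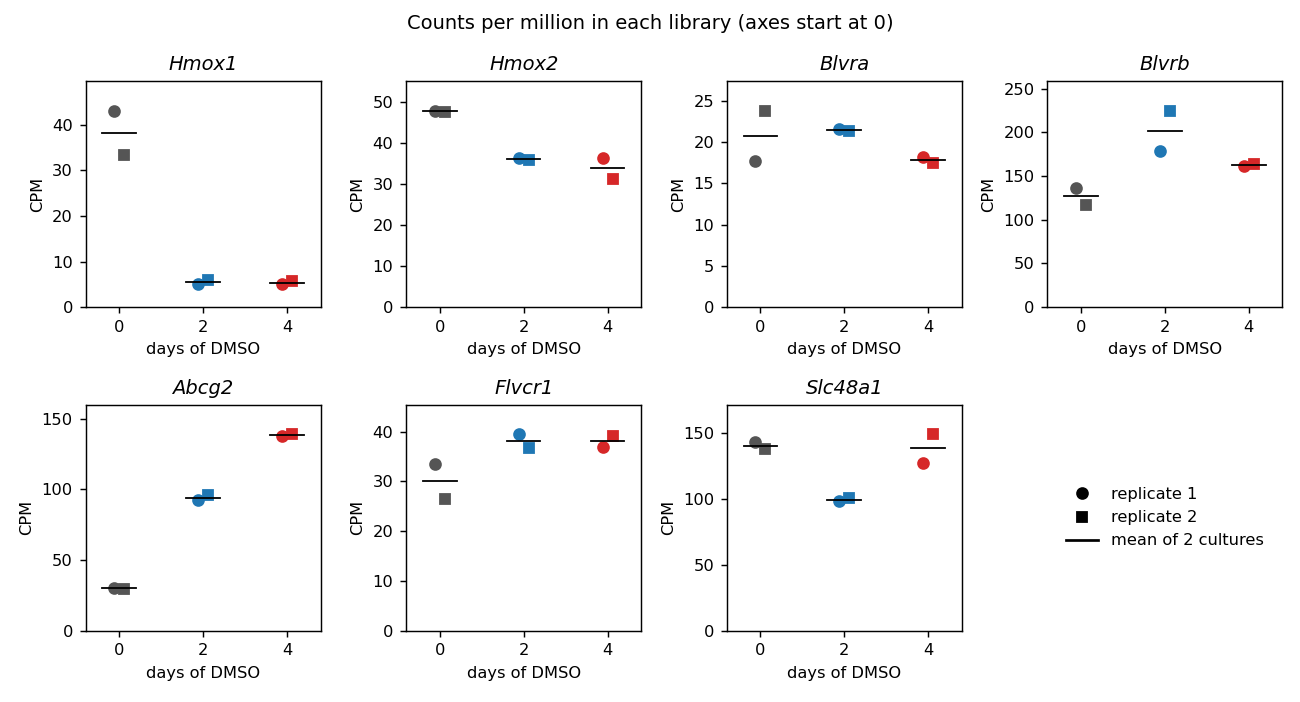
CPM in each library (vertical axes, starting at 0) against days of DMSO (horizontal axes) for the 7 tested genes, with circles for replicate 1, squares for replicate 2 and bars for the mean of 2 cultures. Hmox1 drops from 33.3 to 43.1 CPM at day 0 to under 6 CPM afterwards, Abcg2 climbs at both steps, and Slc48a1 dips at day 2.

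Hmox1, the oxygenase induced by heme and oxidative stress (NM_010442, GRCm38 chr8:75093621-75100589, plus strand, 5 exons), fell the most. Its level was 43.1 and 33.3 CPM in the day 0 cultures, 5.15 and 5.86 CPM at day 2, and 5.02 and 5.64 CPM at day 4, resting on 1760 and 1655 counts at day 0 and on 181 to 288 counts in each later library. Both day 0 cultures lay far above all 4 later ones, and the later days overlapped each other. In bulk RNA, less transcript per cell and fewer expressing cells cannot be told apart, here and for every gene below. At day 2 it was 6.93-fold lower than at day 0 (log2 fold change -2.79, standard error (SE) 0.16, edgeR adjusted p = 2.85e-07). Of the 12414 tested genes, 223 (1.80%) had a log2 fold change as low. From day 2 to day 4 the log2 fold change was -0.05 (95% interval -0.42 to 0.32, edgeR adjusted p = 0.854). The net change at day 4 was a 7.16-fold lower level (log2 fold change -2.84, SE 0.16, edgeR adjusted p = 1.17e-07). Both decreases from day 0 passed the threshold under all 11 alternative analyses, with log2 fold changes of -2.98 to -2.60 at day 2 and -3.03 to -2.65 at day 4.

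Hmox2, the constitutive oxygenase (NM_001136066, chr16:4726363-4766742, plus strand, 6 exons), fell far less. Its level was 47.9 and 47.6 CPM at day 0, 36.4 and 35.9 CPM at day 2, and 36.5 and 31.2 CPM at day 4. Both day 0 cultures stood above all later ones, and days 2 and 4 overlapped. The log2 fold change was -0.40 at day 2 (SE 0.11, edgeR adjusted p = 0.00984) and -0.50 at day 4 against day 0 (SE 0.11, edgeR adjusted p = 0.0023). Between days 2 and 4 it was -0.10 (95% interval -0.35 to 0.16, edgeR adjusted p = 0.562). The day 2 decrease did not pass with library totals as the only scaling (-0.21, edgeR adjusted p = 0.157), nor without day 2 replicate 1 (-0.41, edgeR adjusted p = 0.0655) or replicate 2 (-0.39, adjusted p = 0.0789), while the net decrease passed under all 12 alternatives. Of the exonic bases of this transcript, 892 (51.6%) lie opposite exons of Cdip1, a gene on the other strand with 1220 to 2029 counts a library and a log2 fold change of 0.67 at day 4 against day 0. Whether the counting used strand is not stated, and the share of reads from Cdip1 was not tested.

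The biliverdin reductases differed in level and in course. Blvrb (NM_144923, chr7:27447978-27466144, plus strand, 5 exons), also known as flavin reductase and abundant in red cells, was at 137 and 117 CPM at day 0, 179 and 225 CPM at day 2, and 161 and 163 CPM at day 4. All later cultures were above both day 0 cultures, and the day 2 cultures, the most widely spread, were above those of day 4. It rose by a log2 fold change of 0.67 to day 2 (SE 0.13, edgeR adjusted p = 0.00118). Day 4 against day 2 gave -0.31 (95% interval -0.61 to -0.02, edgeR adjusted p = 0.0937). That difference passed with library totals (edgeR adjusted p = 0.0458), with no filter on low counts (0.0438) and in a fit of those days alone (0.0202). The net increase of 0.35 (SE 0.13, edgeR adjusted p = 0.0315) no longer passed without day 0 replicate 2 (0.24, adjusted p = 0.111), day 4 replicate 1 (0.36, adjusted p = 0.0916) or day 4 replicate 2 (0.34, adjusted p = 0.114).

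Blvra (NM_026678, chr2:127070667-127097084, plus strand, 8 exons), the reductase for the main biliverdin isomer of adult heme breakdown, passed in no comparison. Its level was 17.7 and 23.8 CPM at day 0, 21.6 and 21.4 CPM at day 2, and 18.3 and 17.5 CPM at day 4. The day 0 cultures lay on both sides of the day 2 cultures, and the lower of them fell among the day 4 cultures. Day 2 against day 0 gave a log2 fold change of 0.05 (95% interval -0.27 to 0.37, edgeR adjusted p = 0.788). Day 4 against day 0 gave -0.22 (95% interval -0.54 to 0.10, edgeR adjusted p = 0.194), and without day 0 replicate 1 it was -0.42 and passed (edgeR adjusted p = 0.00526). Day 4 against day 2 gave -0.27 (95% interval -0.59 to 0.05, edgeR adjusted p = 0.186) and passed only in a fit of those days alone (-0.28, edgeR adjusted p = 0.0395).

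**Figure D2:**
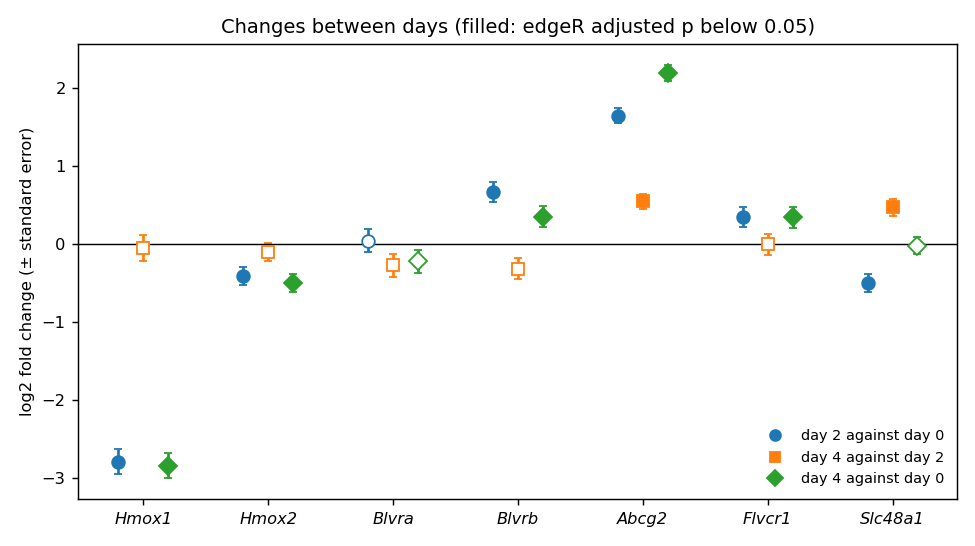
Log2 fold change (vertical axis) with its standard error for the 7 tested genes in 3 comparisons of days, with filled symbols for an edgeR adjusted p below 0.05. Hmox1 (-2.79 and -2.84 against day 0) and Abcg2 (1.65 and 2.20) lie farthest from 0, and every other value lies between -0.50 and 0.67.

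Among the exporters, Abcg2 (NM_011920, chr6:58596671-58695676, plus strand, 16 exons), an ATP-driven pump that moves heme, porphyrins, urate and many drugs out of the cell, rose at both steps. It measured 30.5 and 29.6 CPM at day 0, 92.6 and 95.8 CPM at day 2, and 138 and 139 CPM at day 4. No day overlapped another, and the cultures of a day lay close together. The level was 3.14-fold higher at day 2 than at day 0 (log2 fold change 1.65, SE 0.10, edgeR adjusted p = 3.97e-07). It was 1.47-fold higher at day 4 than at day 2 (log2 fold change 0.55, SE 0.10, edgeR adjusted p = 0.00214). The net rise was 4.61-fold (log2 fold change 2.20, SE 0.10, edgeR adjusted p = 2.87e-08), and 543 tested genes (4.37%) rose as much or more. Both rises from day 0 passed under all 11 alternatives, whereas the later step missed the threshold without day 2 replicate 1 (0.53, edgeR adjusted p = 0.0558). The window printed above ends at the first base of the counted transcript.

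Flvcr1 (NM_001081259, chr1:191005847-191026158, minus strand, 10 exons), the feline leukemia virus subgroup C receptor, described as a heme exporter and more recently also as a choline transporter, rose slightly. The day 0 cultures were at 33.4 and 26.6 CPM, the day 2 cultures at 39.5 and 36.8 CPM, and the day 4 cultures at 37.0 and 39.2 CPM. All later cultures exceeded both day 0 cultures, and days 2 and 4 overlapped. The log2 fold change against day 0 was 0.35 at day 2 (SE 0.13, edgeR adjusted p = 0.0367) and 0.35 at day 4 (SE 0.13, edgeR adjusted p = 0.0331), and from day 2 to day 4 it was -0.00 (95% interval -0.29 to 0.28, edgeR adjusted p = 0.992). The early rise did not pass with DESeq2 (adjusted p = 0.0548), with RLE factors (0.0528), in a fit of those days alone (0.0605), or without day 0 replicate 2 (0.18, adjusted p = 0.165), day 2 replicate 1 (0.30, adjusted p = 0.196) or day 2 replicate 2 (0.40, adjusted p = 0.0926). The net rise did not pass in a fit of those days alone (adjusted p = 0.0622), or without day 0 replicate 2 (0.18, adjusted p = 0.164), day 4 replicate 1 (0.39, adjusted p = 0.0725) or day 4 replicate 2 (0.30, adjusted p = 0.165). A230020J21Rik, an antisense gene that covers 782 exonic bases of Flvcr1 on the other strand, had at most 3 counts in any library.

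Flvcr2 (NM_145447, chr12:85746539-85813585, plus strand, 10 exons), described as a choline transporter of the blood-brain barrier and earlier as a heme importer, had 0 counts in all 6 libraries. A count of 0 allows a level of up to 0.0605 to 0.0831 CPM, depending on the library (3 counts), which covers counting error only.

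Slc48a1 (NM_026353, chr15:97784355-97792692, plus strand, 3 exons), also called HRG1, passes heme from the lumen of endosomes and lysosomes to the cytosol, and its transcript dipped at day 2 and rose again. Its level was 143 and 138 CPM at day 0, 98.3 and 101 CPM at day 2, and 128 and 149 CPM at day 4. Both day 2 cultures lay below all others, and the day 4 cultures lay on both sides of the day 0 cultures. It fell by 0.50 on the log2 scale to day 2 (SE 0.11, edgeR adjusted p = 0.00246) and rose by 0.48 from day 2 to day 4 (SE 0.11, edgeR adjusted p = 0.0088). The net log2 fold change was -0.02 (95% interval -0.26 to 0.22, edgeR adjusted p = 0.876). The fall passed under all 11 alternatives. The later rise lost its call without day 2 replicate 1 (0.46, adjusted p = 0.114), day 2 replicate 2 (0.49, adjusted p = 0.0757) or day 4 replicate 2 (0.35, adjusted p = 0.127).

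Whether the later step differed from the earlier one was tested directly, as the log2 fold change from day 2 to day 4 minus that from day 0 to day 2. This difference passed for 4 of the 7 genes, against 30.1% of all tested genes. For Hmox1 it was 2.75 (SE 0.29, edgeR adjusted p = 0.000155), its fall lying in the earlier step. For Abcg2 it was -1.10 (SE 0.17, edgeR adjusted p = 0.00103), the later rise being the smaller. For Slc48a1 it was 0.97 (SE 0.20, edgeR adjusted p = 0.0047), with a fall followed by a rise, and it did not pass without day 2 replicate 1 (0.93, adjusted p = 0.0987) or replicate 2 (1.00, adjusted p = 0.0758). For Blvrb it was -0.98 (SE 0.23, edgeR adjusted p = 0.0089), and -0.64 without day 2 replicate 2 (adjusted p = 0.189). The difference was not called for Hmox2 (0.31, 95% interval -0.13 to 0.75), Flvcr1 (-0.35, -0.84 to 0.14) or Blvra (-0.32, -0.87 to 0.24). It was called for Flvcr1 without day 0 replicate 1 (-0.53, edgeR adjusted p = 0.0198) and for Blvra without day 0 replicate 2 (-0.54, edgeR adjusted p = 0.0346).

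Levels of different genes were set side by side only per kilobase of transcript, in CPM per kb, which assumes that the annotated length is the one expressed. On this scale Blvrb stood highest on each day, at 123 ± 13.4 CPM per kb (SD, n = 2) at day 0, and Slc48a1 followed at 55.3 ± 1.45. At day 0 they were followed by Hmox2 at 27.6 ± 0.13, Hmox1 at 24.4 ± 4.42, Blvra at 17.9 ± 3.71, Flvcr1 at 7.43 ± 1.20 and Abcg2 at 5.25 ± 0.12 CPM per kb. In that order neither Hmox2 and Hmox1 nor Hmox1 and Blvra differed by more than 2 pooled SDs. At day 4 the order was Blvrb at 158 ± 1.35, Slc48a1 at 54.5 ± 6.02, Abcg2 at 24.2 ± 0.18, Hmox2 at 19.5 ± 2.16, Blvra at 15.4 ± 0.48, Flvcr1 at 9.43 ± 0.38 and Hmox1 at 3.39 ± 0.28 CPM per kb, with all neighbours apart by more than 2 pooled SDs. By the counted transcripts, Abcg2 thus moved from the lowest of the 7 to the third, and Hmox1 from the fourth to the lowest. The place of Abcg2 depended on the length taken for Hmox2. A second Hmox2 transcript of 1.287 kb with nearly the same counts gave 37.05 ± 0.19 CPM per kb at day 0. At day 4 it gave 26.3 ± 2.86 CPM per kb, above the mean of Abcg2.

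Ratios within a library do not depend on its scaling. They do depend on the transcript length taken. Per kilobase, the ratio of Hmox1 to Hmox2 was 0.993 and 0.772 at day 0, 0.156 and 0.180 at day 2, and 0.152 and 0.199 at day 4. By the counted transcripts, the inducible oxygenase thus went from a level near that of the constitutive one to well below it. Any reads of the overlapping gene Cdip1 counted on Hmox2 would enter this ratio, and their share was not tested. By the shorter Hmox2 transcript, the day 0 means were 24.4 CPM per kb for Hmox1 and 37.05 for Hmox2. The ratio of Abcg2 to Flvcr1 was 0.645 and 0.786 at day 0, 1.66 and 1.84 at day 2, and 2.63 and 2.51 at day 4, and crossed 1 between days 0 and 2. The ratio of Blvrb to Blvra was 8.70 and 5.55 at day 0, 9.33 and 11.9 at day 2, and 9.97 and 10.5 at day 4. In every library Blvrb was above Blvra per kilobase, and the ratio was lowest in the day 0 cultures.

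**Figure D3:**
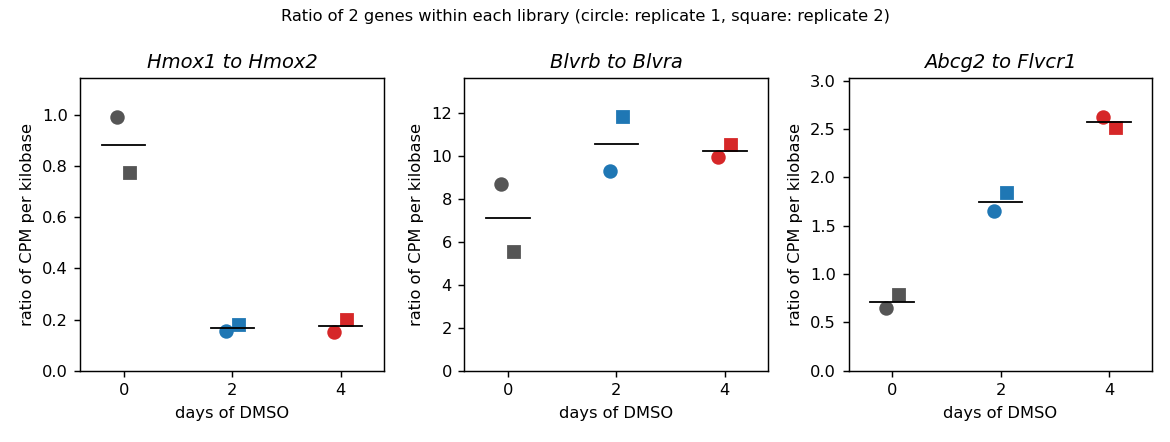
Ratio of the levels per kilobase of a pair of genes (vertical axes, starting at 0) against days of DMSO, with a circle for replicate 1, a square for replicate 2 and a bar for the mean of 2 cultures. The Hmox1 to Hmox2 ratio falls from at least 0.772 to at most 0.199, and the Abcg2 to Flvcr1 ratio rises from at most 0.786 to at least 2.51 at day 4.

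The other genes of heme handling, in 4 lists, are described by their counts and medians, to be read beside the 35.5% of all tested genes called higher and the 36.4% called lower at day 4 against day 0. All 9 heme synthesis enzymes were tested, and at day 4 against day 0 8 were higher and 1 was lower, with a median log2 fold change of 1.84 beside -0.02 over all genes. The largest rise was that of Alas2, the erythroid first enzyme of the pathway (4.21, SE 0.18, edgeR adjusted p = 1.89e-08). The only decrease was that of Cpox, coproporphyrinogen oxidase (207 ± 31.1 CPM at day 0 and 104 ± 3.01 CPM at day 4, SD, n = 2, edgeR adjusted p = 2.36e-05). Among 13 other heme carriers and transporters, the oxygenases' electron donor Por included, 11 were tested, 7 were higher and 2 were lower, with a median of 0.66. The mitochondrial transporter Abcb10 rose most (2.45, SE 0.14, edgeR adjusted p = 1.1e-07). Hebp2 and Mfsd7a had at most 3 counts in every library. Por itself fell by 0.43 on the log2 scale to day 2 (SE 0.13, edgeR adjusted p = 0.0128) and rose by 0.48 from day 2 to day 4 (SE 0.13, edgeR adjusted p = 0.0182), and its net log2 fold change was 0.04 (SE 0.13, edgeR adjusted p = 0.774).

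Of 8 genes that handle bilirubin and iron downstream of the oxygenases, 6 were tested, and 3 were higher and 2 were lower at day 4 than at day 0, with a median of 0.41. These 5 calls among 6 genes stand beside 71.8% of all genes called. Fth1, the ferritin heavy chain gene, rose most (0.98, SE 0.13, edgeR adjusted p = 3.79e-05). Its counted transcript is listed by RefSeq as noncoding. The value is also uncertain because ferritin has processed copies that could share its reads. Abcc2, an exporter of conjugated bilirubin, fell most, from 127 and 143 counts at day 0 to 0 and 3 counts at day 4, a ratio of 81.0 in favour of day 0 with an exact 95% interval of 27.4 to 395 on the pooled reads of each day, which covers counting error only and not the spread between cultures. The calls and the median of this list include Abcc2. Its level at day 2 was 0.14 and 0.18 CPM, and it passed the filter on low counts through day 0 alone. A gene that enters the test in this way can be called lower but not higher, so its call says little about the direction of the list. Ugt1a1, which conjugates bilirubin, and Slco1b2, which takes up organic anions in the liver, had at most 3 counts in every library.

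Hmox1 is a classical target of the repressor BACH1 and the activator NRF2 (Nfe2l2), and 12 other genes of that control were examined. All were tested. At day 2 against day 0, the step in which Hmox1 fell, 1 was higher and 5 were lower (median -0.15), while 31.0% and 31.5% of all genes were. At day 4 against day 0 5 were higher and 4 were lower (median 0.17), and these 9 of 12 stand beside 71.8% of all genes called. The largest net fall was that of Slc7a11, the cystine transporter (-3.44, SE 0.33, edgeR adjusted p = 3.6e-06). The largest net rise was that of Mafk, a small MAF partner of both factors (0.53, SE 0.11, edgeR adjusted p = 0.00152). The other small MAF genes of the list, Mafg (-0.615, SE 0.16, edgeR adjusted p = 0.00484) and Maff (-2.20, SE 0.43, adjusted p = 0.000717), were lower. Maff was at a low level and its day 0 cultures differed widely (2.40 and 6.65 CPM, against 0.80 to 1.24 CPM later). Bach1 itself gave 0.22 at day 2 (SE 0.10, edgeR adjusted p = 0.0655) and was higher at day 4 (0.43, SE 0.10, edgeR adjusted p = 0.00204). Nfe2l2 gave -0.03 at day 2 (SE 0.10, edgeR adjusted p = 0.845) and was higher at day 4 (0.51, SE 0.10, edgeR adjusted p = 0.00111). Of the NRF2 targets in the list, Slc7a11 (-1.18, edgeR adjusted p = 0.00432) and Txnrd1 (-0.76, adjusted p = 9.49e-05) were lower at day 2 and Gclc (0.34, adjusted p = 0.0205) was higher, while Nqo1, Gclm and Srxn1 were not called. The other decreases at day 2 were those of genes listed for control, Keap1 (-0.37, edgeR adjusted p = 0.0121), Mafg (-1.24, adjusted p = 6.95e-05) and Maff (-1.97, adjusted p = 0.00159). Messenger RNA levels do not show the activity of either factor.

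**Figure D4:**
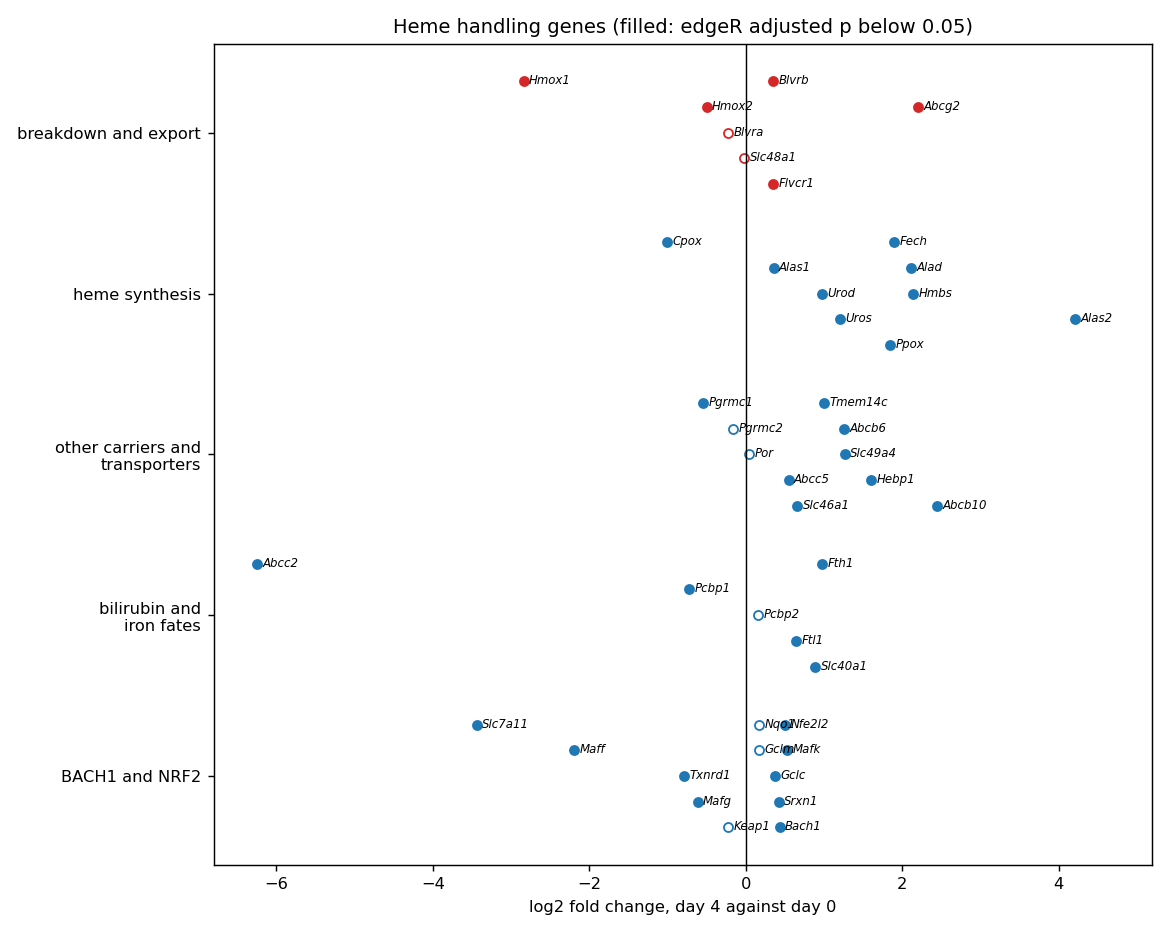
Log2 fold change of day 4 against day 0 (horizontal axis) for the tested genes of heme breakdown and export (red) and of 4 lists of other heme handling genes (blue), staggered vertically for legibility and with 1 carrier not shown, with filled points for an edgeR adjusted p below 0.05. Heme synthesis genes lie mostly right of 0 with Alas2 at 4.21, Hmox1 lies at -2.84, and the point of Abcc2 is a fitted value that rests on 0 and 3 counts at day 4.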

How the data were processed

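The authors prepared strand-specific poly(A) libraries (TruSeq), trimmed adapters with cutadapt and aligned reads to mm10 with TopHat. The submitters' processing notes also name HTSeq and DESeq2. The strand setting and overlap mode of the counting and its annotation release are not given in the sources used here. The deposited values are raw counts per RefSeq transcript, with 0 reads listed as ambiguous, so that transcripts of a gene can share reads. Reads in no feature made up 50.5% to 58.4% of all listed counts and were left out of library sizes. In that total a shared read counts once for each transcript, so the figure is not a share of reads. Of 32654 transcripts, 32199 received a symbol from RefSeq and 187 from GENCODE, and 268 received none. Positions and lengths came from the GENCODE annotation of GRCm38, the assembly of mm10. None of the 8 genes shared more than 0.359% of its 30-base words with another gene, and the genes of the lists were not searched.

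Counts were fitted with edgeR 4.0.16 (R 4.3.3): TMM factors (0.921 to 1.07), filterByExpr by day (18351 transcripts kept), 1 quasi-likelihood fit over the 3 days without a block, and Benjamini-Hochberg adjustment over all kept transcripts. SE, intervals and log2 fold changes come from that fit. CPM use TMM-scaled totals. The fit was tested on simulated data. Alternatives were DESeq2 1.42.0, RLE factors, library totals, no filter, no globin counts, a fit of only the days compared and a replicate block. The second transcript of a gene and leaving out each library in turn were also used. For Hmox2 and Blvrb the second transcript held nearly the same counts as the first, so that it could hardly give another result. Same-numbered replicates deviated together with correlations of only 0.032 to 0.079, so the numbers were not taken to pair the cultures. P-values measure the spread between replicates that are described as biological. In edgeR that spread, and with it the SE and intervals, was moderated by the spread of all kept transcripts. The residual and prior degrees of freedom together were 10.92 for the tested genes of the set. The genes, lists and tests were chosen with earlier results of these data known. All 8 genes are named, with from each list the largest called rise and fall at day 4 and any gene at 3 counts or fewer, except for 1 gene that is not reported here. For the 3 genes with the largest called net change, the 2 genes nearest in profile are named (root mean square difference of centred log2 CPM, average log2 CPM of at least 1). Por, Bach1, Nfe2l2, Keap1, Mafg, Maff, the other NRF2 targets and the cell type markers in the text were named after their values were seen.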

Additional observations from a re-analysis of the deposited data

Results flagged for a closer look

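For 4 genes the change from day 2 to day 4 differed from the change from day 0 to day 2 by an edgeR test of the difference itself. That test was passed by 30.1% of all tested genes. As the later log2 fold change minus the earlier one, the difference was 2.75 for Hmox1, 0.97 for Slc48a1, -0.98 for Blvrb and -1.10 for Abcg2. Both steps share the day 2 libraries, which enter them with opposite signs. Without day 2 replicate 2 the difference passed for Hmox1 and Abcg2 but not for Blvrb (-0.64, edgeR adjusted p = 0.189) or Slc48a1 (1.00, edgeR adjusted p = 0.0758). No group held 4 samples, so that single cultures were not screened as outliers.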

How the results depend on the processing

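Of 293 values of single genes under alternatives, 251 kept their direction and side of the threshold, 23 lost their call, 7 gained one and 12 changed sign. No called value changed sign. With 1 library left out, the uncalled values that changed sign ranged from -0.15 to 0.27 for Blvra at day 2 against day 0, from -0.14 to 0.048 for Hmox1, -0.21 to 0.010 for Hmox2 and -0.055 to 0.047 for Flvcr1 at day 4 against day 2, and from -0.14 to 0.088 for Slc48a1 at day 4 against day 0. Flvcr1 at day 4 against day 2 was 0.0061 with RLE factors, 0.0051 with DESeq2 and 0.0014 with the replicate block, and Slc48a1 at day 4 against day 0 was 0.092 with library totals. The number of genes called at day 4 against day 2, 2 in the fit reported, was 4 in a fit of those days alone, and 0 to 2 with 1 library left out (0 without day 2 replicate 1). Leaving out 1 library gave 4 to 6 calls for day 2 against day 0, 3 to 6 for day 4 against day 0 and 2 to 5 for the difference of steps. With the replicate block 6, 2 and 5 genes were called in the 3 comparisons and 4 for the difference of steps, and no call of the 7 tested genes changed. In the fit reported, 62.6%, 30.3% and 71.8% of all tested genes were called in these comparisons and 30.1% for the difference of steps. Library totals in place of TMM put the median log2 fold change of all genes at 0.21 for day 2 and 0.10 for day 4 against day 0. Where 1 library was left out, the lone culture of that day was assumed to vary like the others. With 2 cultures a day, some calls on log2 fold changes up to that of Abcg2 from day 2 to day 4 (0.55), and on differences of steps up to that of Blvrb (-0.98), depended on 1 library.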

Other observations

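For the 3 genes with the largest called net changes, the genes with the most similar course over the 6 libraries were sought among 10480 genes. Hmox1 lay nearest to E330020D12Rik, a long noncoding RNA gene, with a root mean square difference of 0.115 in centred log2 CPM, whose mean level was 18.2 CPM at day 0, 2.50 CPM at day 2 and 2.89 CPM at day 4. Next came Mir5114 (0.131), a microRNA locus inside Scd2, a stearoyl-CoA desaturase gene whose own log2 fold change was -2.80 at day 2 and -2.64 at day 4 against day 0, so that reads of the microRNA locus and of its host cannot be told apart. Abcg2 lay nearest to Ranbp6 (0.0678), at 89.9, 273 and 427 CPM on the 3 days, and to Nsmf (0.0696), at 20.7, 59.6 and 86.9 CPM. Hmox2 lay nearest to Pelo (0.0266), which encodes a ribosome rescue factor, at 22.0, 16.1 and 15.0 CPM, and to Ccdc93 (0.0348), at 104, 82.2 and 77.5 CPM. Pelo lies within Itga1, and the share of its reads from Itga1 was not tested. These likenesses describe 6 libraries only.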
